A study of Caenorhabditis elegans with 18 samples.

Results

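RNA of whole *Caenorhabditis elegans* was compared between an *ire-1* mutant and the wild type after a day in the cold. The libraries were chosen by their labels. They were the 3 of *ire-1(ok799)* worms after cold (strain CF2473, replicates 1 to 3, called ire-1 cold) and the 3 of wild-type worms after cold in the same experiment (strain N2, replicates 1 to 3, called WT cold), which made 6 of the 18 poly(A)-selected libraries of the series. Worms of both strains were grown at 15 °C for 5 days from the egg to day 1 of adulthood and then kept at 2 °C for 24 h before harvest. The same experiment holds 3 libraries of *ire-1(ok799)* worms (ire-1 control) and 3 of wild-type worms (WT control) that were harvested at day 1 without the cold. These 6 enter the fit for its estimate of the spread and show how the strains differ without cold. The libraries WT cold 4 to 6 come from another experiment with no mutant, and they enter only 1 alternative fit, of all 18 libraries, besides the levels given as values. The labels name replicates as biological. Each genotype was 1 strain, so a difference due to the *ire-1* deletion and one due to other variants of that strain cannot be told apart.

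IRE-1 is a kinase and endoribonuclease in the membrane of the endoplasmic reticulum (ER) that senses unfolded proteins in its lumen. When active, it cuts the *xbp-1* messenger RNA, which is then joined into a form that encodes an active transcription factor. That factor raises genes for ER chaperones, for protein translocation into the ER and for the degradation of misfolded ER proteins (ERAD), and the kinase PEK-1 and the membrane-bound factor ATF-6 form the other branches of this response.

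Total counts were between 20621965 and 28605468 in the 6 cold libraries, so that 1 CPM (counts scaled to library size by TMM factors) stood for at least 20 reads. Log2 levels of the tested genes correlated between the 6 libraries with r from 0.896 to 0.9897, and the lowest values were those of ire-1 cold 2. That library had 2259 CPM of summed sperm markers, against 163 and 172 in ire-1 cold 1 and 3, and WT cold 2 had 755 CPM, against 127 and 151 in WT cold 1 and 3. Control replicate 1 of each strain was high as well, at 2701 CPM in ire-1 control 1 and 2808 CPM in WT control 1. The 4 libraries cold 2 and control 1 of both strains are called sperm-rich below. The plot of list medians shows every list with and without them, and for single genes the value without them is given where it moves by over 1.5 times. In the cold, a fit without the sperm-rich libraries compares only replicates 1 and 3 of each strain. Markers of each of 8 cell types were found in all 12 libraries, and only 3 of 77 sperm markers and 1 of 19 embryonic markers were at 0 in every cold library.

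The *ire-1* transcript itself was low in the mutant. It stood at 59.5, 41.3 and 51.6 CPM in ire-1 cold, against 192, 184 and 187 CPM in WT cold. The WT cold libraries were close to each other and all 3 lay above every mutant library, and WT cold 4 to 6 had 228, 169 and 215 CPM. The log2 difference (ire-1 cold minus WT cold, ± SE) was -1.89 ± 0.26 by edgeR, which did not pass over all genes (n = 3 per group, p adjusted by Benjamini-Hochberg = 0.0943). Same-numbered libraries of the strains deviated together from their group means, with r of 0.646, 0.81 and 0.338 in the cold. Libraries of other numbers reached 0.61, so these values do not single out the same numbers. The numbers were nevertheless taken as pairs within each condition, and in this paired fit the difference passed (-1.90, adjusted p = 0.00339). Of 12 unpaired fits with 1 library left out, it passed in 1, without WT control 3 (adjusted p = 0.0163), and adjusted p reached 0.624. Without cold it was -1.29 ± 0.26. The count pools all exons, so reads from parts of the gene that the deletion leaves are included. The gene lies on the minus strand of chromosome II (8112243 to 8124910, WBcel235) and overlaps *unc-105* on the plus strand. The strand setting of the counting is not given in the sources used here, and *unc-105*, an ion channel gene, had 3.97, 5.65 and 3.85 CPM in ire-1 cold, against 2.40, 2.47 and 2.09 CPM in WT cold.

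Across all 14344 tested genes, edgeR called 2 (0.0139%) at an adjusted p under 0.05 between ire-1 cold and WT cold, and both were higher in the mutant. The paired fit called 22 (0.153%), of which 9 were higher (0.0627%) and 13 lower (0.0906%). Differences given with ± below are those of the unpaired fit, also where a paired adjusted p stands beside them. At an unadjusted p under 0.05 there were 1098 genes (7.65%), 263 higher (1.83%) and 835 lower (5.82%) in ire-1 cold. That number was 339 without WT cold 3, 462 without ire-1 cold 2 and 2496 in the paired fit. In 2417 genes (16.9%) the 3 mutant and the 3 wild-type libraries did not overlap, with 639 higher (4.45%) and 1778 lower (12.4%). That split depends on the scaling. With TMM factors 73.6% of these genes were lower in ire-1 cold, and with RLE factors 57.8% were (799 higher and 1093 lower). Among the 1778 lower genes, ire-1 cold 2 was the lowest mutant library in 1423 and WT cold 3 the highest wild-type library in 1396. The median difference of all genes was 0.07 with TMM, 0.12 with RLE and 0.01 without the 4 sperm-rich libraries, and differences of that size lie within the scaling. The 22 genes of the paired fit were spread over all 6 chromosomes, with 5 higher and 5 lower ones on chromosome V.

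The 2 genes called without pairing are protein-coding genes that carry only sequence names in the annotation. C38D9.2 (WBGene00008010, chromosome V, 17567150 to 17571742) was nearly silent in the wild type. It had 39.4, 63.3 and 82.3 CPM in ire-1 cold, against 0.621, 0.342 and 0.542 CPM in WT cold, which were 905, 1480 and 1709 reads against 16, 9 and 14. Every mutant library was far above every wild-type one, and WT cold 4 to 6 had 0, 2 and 2 reads. The difference was 6.93 ± 0.47 (edgeR adjusted p = 0.000289), and it passed in each of 12 fits that left out 1 library, between 6.66 and 7.16. Without cold it was 8.15 (adjusted p = 0.000107).

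F15D4.5 (chromosome II, 13245376 to 13247774), which lies 5.12 Mb from *ire-1*, had 16.6, 18.9 and 26.0 CPM in ire-1 cold, against 1.32, 1.18 and 1.74 CPM in WT cold. The strains were again well apart, and WT cold 4 to 6 had 0.841, 0.714 and 0.800 CPM. The difference was 3.85 ± 0.43 (edgeR adjusted p = 0.0211) in the cold and 4.91 (adjusted p = 0.00341) without it. The value moved only between 3.64 and 4.03 when 1 library was left out, but the call was lost without any 1 of the 6 cold libraries or without ire-1 control 3, with adjusted p up to 0.196. In the paired fit its adjusted p was 5.35e-05.

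Each of these genes has a neighbour on the same strand that was raised in the paired fit. C38D9.13, which starts 1466 bases after the end of C38D9.2, had 18, 29 and 21 reads in ire-1 cold, against 2, 1 and 2 in WT cold (paired adjusted p = 0.0472). F15D4.6, which starts 1412 bases after F15D4.5, had 50, 40 and 56 reads in ire-1 cold, against 7, 5 and 16 in WT cold (paired adjusted p = 0.0375). The groups did not overlap in either gene, and the mutant libraries were also the higher ones without cold, with 41, 60 and 28 reads of C38D9.13 in ire-1 control against 0, 1 and 2 in WT control. Of the 10 nearest tested genes around C38D9.2, and of the 10 around F15D4.5, no other was called.

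**Figure D1:**
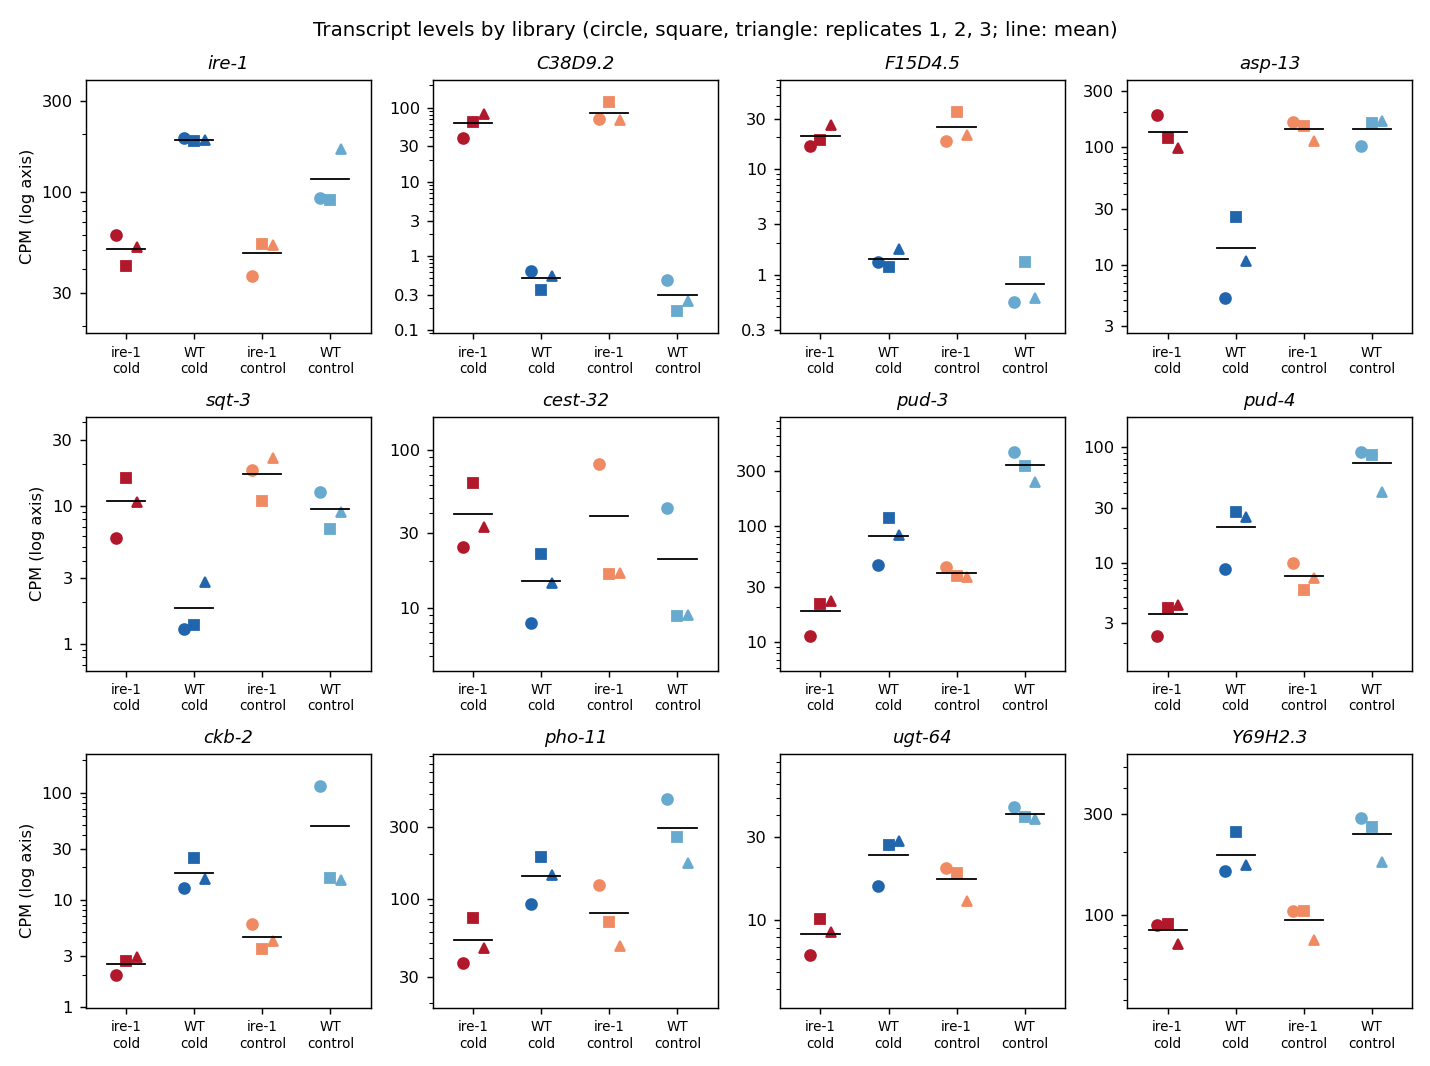
Levels of 12 genes in the 12 libraries of the experiment, in CPM on a log axis, for ire-1 cold, WT cold, ire-1 control and WT control from left to right; symbols are replicates 1 to 3 and lines are group means. C38D9.2 and F15D4.5 are high in both mutant groups, asp-13 is low only in the 3 WT cold libraries (5.20 to 25.6 CPM), and the pud, ckb-2, pho-11, ugt-64 and Y69H2.3 panels show both mutant groups under the wild type of the same condition.

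Of the other genes raised in the paired fit, the aspartyl protease gene *asp-13* differed most in level. It had 188, 121 and 98.0 CPM in ire-1 cold, against 5.20, 25.6 and 10.7 CPM in WT cold. The mutant libraries in the cold were at the level of both control groups, which had 163, 152 and 114 CPM in ire-1 control and 102, 160 and 166 CPM in WT control. The WT cold libraries stood apart from the other 9, and WT cold 4 to 6 were as low, at 6.86, 31.97 and 5.04 CPM. The difference in the cold was 3.29 ± 0.52 (adjusted p = 0.224 unpaired and 0.0169 paired), and without cold it was 0.01. The test of whether the strain difference itself depended on the cold gave 3.29 ± 0.69 with an unadjusted p = 0.000617, the smallest of all genes, and did not pass over all genes (adjusted p = 0.996). The difference in the cold passed in the unpaired fit without the 4 sperm-rich libraries (adjusted p = 0.0186). Of 12 unpaired fits with 1 library left out, it passed in 1, without WT cold 2 (adjusted p = 0.0341). Both of these fits leave out WT cold 2, the highest WT cold library of this experiment for *asp-13*, so they are not separate evidence.

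Also raised in the paired fit were *sqt-3*, a cuticle collagen gene, and *cest-32*, a gene of the carboxylesterase family. The *sqt-3* transcript had 5.84, 15.7 and 10.6 CPM in ire-1 cold, against 1.28, 1.37 and 2.79 CPM in WT cold (2.56 ± 0.48, adjusted p = 0.443 unpaired and 0.0169 paired). That of *cest-32* had 24.4, 61.8 and 32.7 CPM in ire-1 cold, against 8.03, 21.9 and 14.4 CPM in WT cold (1.42 ± 0.80, adjusted p = 0.759 unpaired and 0.0165 paired). Neither overlapped between the strains, and *cest-32* was highest in the sperm-rich library of each group. C45B2.2 had 9, 394 and 32 reads in ire-1 cold, against 0, 33 and 10 in WT cold, so that its groups overlapped. It was highest in the sperm-rich library of each group, with 484 reads in ire-1 control 1 and 243 in WT control 1. Its difference of 3.50 was 0.81 without ire-1 cold 2 and 2.302 without the 4 sperm-rich libraries. *idpp-8* had 29, 107 and 85 reads in ire-1 cold, against 5, 15 and 13 in WT cold, and at most 2 reads in any control library of either strain.

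The genes lowered in the paired fit began with *pud-3* and *pud-4*, which encode small proteins first found as raised in worms with reduced insulin signalling. *pud-3* had 11.4, 21.3 and 22.7 CPM in ire-1 cold, against 45.8, 118 and 83.8 CPM in WT cold (-2.16 ± 0.37, adjusted p = 0.331 unpaired and 0.000887 paired). *pud-4* had 2.31, 4.07 and 4.29 CPM in ire-1 cold, against 8.88, 27.5 and 24.9 CPM in WT cold (-2.52 ± 0.48, adjusted p = 0.443 unpaired and 0.00986 paired). All mutant libraries lay below all wild-type ones for both genes, also without cold, where the differences were -3.08 and -3.26. In a list of *pud* genes with *dod-23* and *nuc-1*, all 5 tested members were lower in ire-1 cold without overlap (median -1.90), against 12.4% of all genes, and 2 passed in the paired fit. That list was built from earlier results of these data, so its direction is no independent evidence. *dod-23*, a gene known as downstream of the insulin-pathway factor DAF-16, had 39.3, 29.4 and 38.6 CPM in ire-1 cold, against 76.1, 106 and 109 CPM in WT cold (-1.44 ± 0.25, adjusted p = 0.331 unpaired and 0.0578 paired). It was 1 of 4 lower genes without overlap among 20 outputs of the insulin pathway (median 0.06, and -0.08 without the sperm-rich libraries), of which none was higher.

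Enzymes of lipid, glycan and drug metabolism were among the other falls. *ckb-2*, a choline kinase gene, had 1.96, 2.70 and 2.94 CPM in ire-1 cold, against 12.9, 24.8 and 15.4 CPM in WT cold (-2.80 ± 0.73, paired adjusted p = 0.0329). Unpaired its adjusted p was 0.613, and it passed in 1 of 12 fits with 1 library left out, without WT control 1 (adjusted p = 0.0309). *aman-1*, an alpha-mannosidase gene, had 0.915, 2.48 and 0.675 CPM in ire-1 cold, against 3.53, 12.7 and 4.18 CPM in WT cold (-2.32 ± 0.62, adjusted p = 0.613 unpaired and 0.0165 paired), and the difference was -1.51 without WT cold 2. WT cold 4 to 6 had only 2.13, 0.982 and 2.03 CPM of *aman-1*, which overlaps the mutant libraries, whereas their 11.2, 10.7 and 10.9 CPM of *ckb-2* lay above them.

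*ugt-64*, a UDP-glucuronosyltransferase gene, had 6.27, 10.1 and 8.53 CPM in ire-1 cold, against 15.6, 26.8 and 28.4 CPM in WT cold (-1.51 ± 0.29, adjusted p = 0.443 unpaired and 0.0209 paired). *pho-11*, an acid phosphatase gene, had 37.1, 74.2 and 46.3 CPM in ire-1 cold, against 91.5, 190 and 143 CPM in WT cold (-1.43 ± 0.46, adjusted p = 0.613 unpaired and 0.00379 paired). Y69H2.3 had 90.3, 91.3 and 73.2 CPM in ire-1 cold, against 161, 247 and 173 CPM in WT cold (-1.19 ± 0.23, adjusted p = 0.443 unpaired and 0.0209 paired). In all 3 genes the strains did not overlap in the cold or without it. WT cold 4 to 6 varied widely for *ugt-64*, at 3.82, 5.00 and 59.8 CPM, and for *pho-11*, at 72.0, 243 and 56.3 CPM, while Y69H2.3 stood at 145, 163 and 150 CPM. These 3 genes, *ckb-2*, *cest-32* and *sqt-3* overlap another annotated gene, on the same strand for *ckb-2* and on the opposite one for the others. *idpp-8* overlaps M02G9.4 on the same strand and *gcy-5* on the opposite one. *trp-4*, given below, overlaps noncoding RNA genes on the opposite strand. Reads of all these overlaps are uncertain.

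*trp-4*, which encodes a mechanosensory ion channel of dopamine neurons, had 10, 6 and 6 reads in ire-1 cold, against 97, 45 and 64 in WT cold (-2.998 ± 0.58, paired adjusted p = 0.0165). It was lower in the mutant without cold too, with 3, 8 and 6 reads in ire-1 control against 24, 54 and 67 in WT control. *col-95*, a cuticle collagen gene, had 195, 30.6 and 139 CPM in ire-1 cold, against 417, 129 and 328 CPM in WT cold (-1.26 ± 0.58, paired adjusted p = 0.0204, and -0.81 without ire-1 cold 2). Its groups overlapped, and each mutant library was lower than the wild-type library of its number. F35F10.5, F48C1.9 and Y43C5A.7 completed the 13 and had means of at most 4.89 CPM.

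These differences were mostly present without cold as well. All 22 genes of the paired fit had the same sign in the control libraries. These libraries are not part of the cold difference itself, but they share the filter, scaling and spread of its fit. The sign says little for *asp-13*, at 0.01 without cold. It says little for *idpp-8* too, with 2, 0 and 1 reads in ire-1 control against 1, 1 and 0 in WT control. In 16 of the 22 the control groups did not overlap either. Of all genes, 4.16% were higher and 11.5% lower without overlap in the control. Without cold edgeR called 9 genes (0.0627%), 2 higher (0.0139%) and 7 lower (0.0488%) in ire-1 control, and all 9 also differed in the cold the same way without overlap. Leaving out 1 library gave between 2 and 48 calls, with 48 without WT control 3. The paired fit called 390 genes without cold (2.72%). The 7 lower genes of the unpaired fit include *pud-3*, *dod-23* and *nuc-1*, a gene for a lysosomal DNase, and *spp-4* and *spp-5*, which encode saposin-like antimicrobial proteins. In the cold *spp-4* had 9.11, 9.25 and 5.49 CPM in ire-1 cold, against 13.03, 31.8 and 26.5 CPM in WT cold (-1.58 ± 0.38, adjusted p = 0.613), and without cold its difference was -2.72 (adjusted p = 0.0455). Over all 14344 genes, which are not independent replicates, the strain differences in the cold and without it correlated with r = 0.484 and rho = 0.474. Of the 2417 genes without overlap in the cold 85.3% had the same sign without cold, against 67.1% of all genes, and 932 also did not overlap, in the same direction, without cold, 124 of the 639 higher ones and 808 of the 1778 lower ones. Another 13 genes did not overlap in the cold or in the control, with opposite directions in the 2 conditions.

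**Figure D2:**
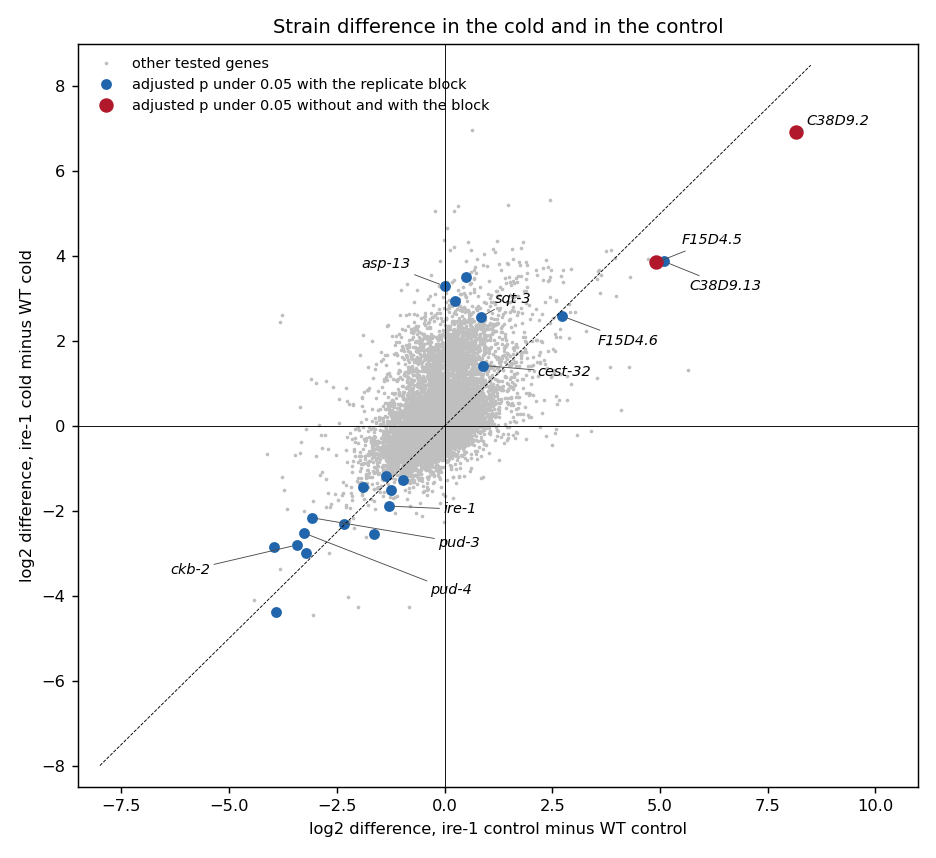
Strain difference of each of 14344 tested genes, as log2 of ire-1 over WT, without cold (x axis) and in the cold (y axis); the dashed line marks equal values, red points are the 2 genes called in the cold without pairing and blue points those called only in the paired fit (the replicate block of the legend). All 22 coloured points lie in the upper right or lower left, and asp-13 sits at 0.01 on the x axis and 3.29 on the y axis.

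Whether a strain difference depended on the cold was tested directly. No gene passed by edgeR (0 of 14344, 0%), paired or unpaired, or by limma-voom, and DESeq2 called 1, *asp-13*. At an unadjusted p under 0.05 there were 197 genes (1.37%), of which 174 (1.21%) had a more positive strain difference in the cold and 23 (0.16%) a more negative one. Both the number and its split rest on single libraries. Without WT control 3 there were 955 genes, 402 more positive and 553 more negative, while without ire-1 control 3, WT cold 1 or WT control 2 there were between 123 and 128. Without ire-1 control 1 there were 324, without the sperm-rich libraries 374, and in the paired fit 836. Gut proteases, which digest food and the contents of lysosomes, made up a visible share of them. Of 21 tested genes for aspartyl and cathepsin-like proteases, 14 were among the 174 and none among the 23, with a median difference between cold and control of 1.25, against 0.12 for all genes. The list was chosen with earlier results of these data known. Other lists moved the same way. The 174 held 6 of 17 intestine markers (median 0.99), 8 of 38 lysozyme, saposin-like and antimicrobial genes (0.92) and 5 of 23 peroxisomal beta-oxidation genes (0.54). Medians of collagens (1.23) and sperm markers (1.65) were as high or higher. None of the 14 passed over all genes. With 1 library left out their number lay between 8, without WT control 2, and 16, with none among the more negative genes in any of the 12 such fits, and it was 10 without the sperm-rich libraries. The list's median strain difference was -0.04 in the cold, against 0.07 for all genes, and 14 of the 21 were lower without overlap in the control, against 11.5% of all genes.

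*asp-13* is 1 of the 14, and its strains lay apart in the cold. In *asp-4* and *cpr-9* they lay further apart in the control. *asp-4*, a cathepsin D-like gene, had 245, 182 and 187 CPM in ire-1 cold, against 109, 180 and 165 CPM in WT cold, and 216, 306 and 258 CPM in ire-1 control, against 489, 699 and 429 CPM in WT control. *cpr-9*, a cathepsin B-like gene, had 359, 373 and 289 CPM in ire-1 cold, against 441, 478 and 602 CPM in WT cold, and 320, 410 and 362 CPM in ire-1 control, against 1828, 2480.3 and 990.3 CPM in WT control. The 3 WT control libraries were the highest of the 12 in both genes.

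The summed intestine markers were 17700, 20750 and 17140 CPM in ire-1 control, against 28190, 45500 and 23040 CPM in WT control, which was also the higher group here. In the cold they were 15670, 9315 and 11580 CPM in ire-1 cold, against 21040, 8398 and 12080 CPM in WT cold, and did not separate the strains. The marker list itself holds the protease genes *asp-1*, *cpr-1* and *cpr-6*, so these sums are not separate from the protease values. The part of the intestine markers in the protease values was not tested. In whole worms, fewer cells of a type and less RNA per cell cannot be told apart. *lys-8*, a lysozyme gene, and *pmp-5*, a peroxisomal ABC transporter gene, were like *asp-13* in being lower in WT cold than in the other groups. *lys-8* had 85.9, 89.1 and 81.0 CPM in ire-1 cold, against 25.3, 58.0 and 40.2 CPM in WT cold (1.05 ± 0.29, with 1.59 ± 0.41 and an unadjusted p = 0.0028 for dependence on the cold). *pmp-5* had 76.9, 48.4 and 39.2 CPM in ire-1 cold, against 6.75, 21.7 and 11.6 CPM in WT cold (2.04 ± 0.48, with 2.56 ± 0.67 and an unadjusted p = 0.00294 for dependence on the cold). The mutant libraries lay above the wild-type ones in both genes, and neither passed over all genes (adjusted p = 0.613 in the cold, 0.996 for dependence on the cold).

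Apart from *ire-1*, which is in none of the ER lists, genes of the ER response had small median differences between the strains in the cold. None of the ER lists held a called gene. Of 10 tested genes listed as stress sensors and branch factors, the median was -0.05, and 1 was lower without overlap (0 with RLE factors). That list includes the chaperone gene *hsp-3* but not *ire-1*. The *xbp-1* transcript, whose splicing these gene counts cannot show, had 154, 224 and 196 CPM in ire-1 cold, against 168, 215 and 178 CPM in WT cold (0.03 ± 0.34). *pek-1* (-0.07 ± 0.29, and -0.19 without the 4 sperm-rich libraries) and *atf-6* (-0.04 ± 0.30, and 0.20 without them) likewise overlapped between the strains, and the sign of each of the 3 turned under at least 1 other setting.

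The BiP genes encode the main Hsp70 chaperones of the ER. *hsp-4* had 450, 342 and 444 CPM in ire-1 cold, against 521, 572 and 456 CPM in WT cold (-0.33 ± 0.35, adjusted p = 0.933, and -0.12 without the 4 sperm-rich libraries). *hsp-3* had 177, 224 and 185 CPM in ire-1 cold, against 334, 361 and 200 CPM in WT cold (-0.61 ± 0.41, adjusted p = 0.853). The *hsp-4* groups did not overlap by a narrow margin and those of *hsp-3* did overlap. Of 22 chaperones, disulfide isomerases and oligosaccharyltransferase subunits, 6 (27.3%) were lower without overlap and none higher (3 and 0 with RLE factors). Their median was -0.18, against 0.07 for all genes, of which 12.4% were lower. Among the 6, *dad-1*, a subunit of the oligosaccharyltransferase, had 133, 103 and 130 CPM in ire-1 cold, against 184, 175 and 244 CPM in WT cold (-0.72 ± 0.18, adjusted p = 0.613). *pdi-6*, a disulfide isomerase gene, had 76.3, 76.8 and 76.2 CPM in ire-1 cold, against 114, 186 and 108.4 CPM in WT cold (-0.83 ± 0.40, adjusted p = 0.661, and -0.54 without the 4 sperm-rich libraries). The mutant libraries were almost equal for *pdi-6*, in the cold and in the control, while the wild-type ones varied up to 459.5 CPM in WT control 1.

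Of all genes 12.4% were lower and 4.45% higher without overlap (1093 and 799 of 14344 with RLE). Of 26 genes of translocation and ERAD, 8 (30.8%) were lower without overlap and 1 (3.8%) higher (7 and 0 with RLE). Their median was -0.12. The lower ones include *ubc-7*, the ubiquitin-conjugating enzyme of ERAD, with 323, 224 and 306 CPM in ire-1 cold, against 376, 393 and 573 CPM in WT cold (-0.65 ± 0.21, adjusted p = 0.613). They also include the signal peptidase subunit *spcs-1*, with 65.0, 47.1 and 61.3 CPM in ire-1 cold, against 75.2, 84.2 and 130 CPM in WT cold (-0.74 ± 0.25, adjusted p = 0.613), and the derlin gene *der-2* (-0.50 ± 0.19). All 3 were lower without overlap in the control too, as were 5 of the 26 in all. Of 23 genes of ER to Golgi transport, 7 (30.4%) were lower without overlap and none higher (6 and 0 with RLE). Among the 7 were the p24 cargo receptor genes *tmed-3* (-0.59 ± 0.19) and *tmed-4* (-0.54 ± 0.17) and the coatomer subunit gene *copz-1* (-0.59 ± 0.19), each with an adjusted p = 0.613. Without the 4 sperm-rich libraries the medians of the 3 lists of chaperones, translocation and ERAD, and transport were -0.01, 0.01 and 0.04, against 0.01 for all genes.

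**Figure D3:**
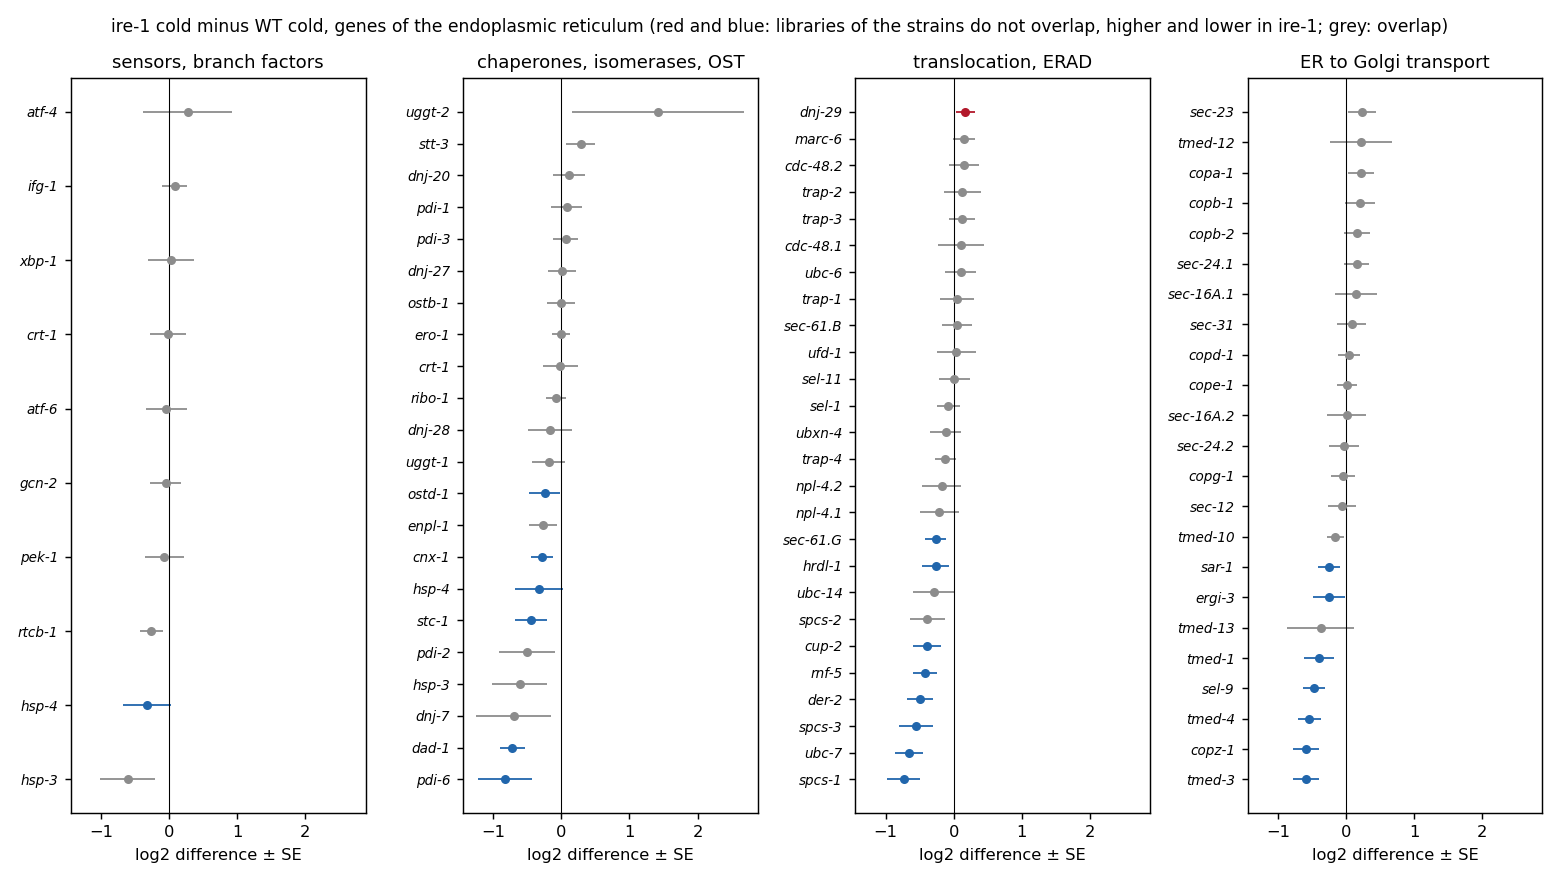
Log2 difference of ire-1 cold against WT cold (x axis, bars are SE, n = 3 per group) for each tested gene of 4 ER lists, ordered by value; OST is the oligosaccharyltransferase and ERAD the degradation of misfolded ER proteins. Blue points, lower in the mutant without overlap of the libraries, number 1, 6, 8 and 7 in the panels from left to right, and red, higher without overlap, only 1. The first panel includes hsp-3, and ire-1 is in none of the 4.

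Fat metabolism, which the title of the study ties to *ire-1* in the cold, held few differences in these worms. The delta-9 desaturase genes, whose products desaturate stearic and palmitic acid, overlapped between the strains. *fat-5* had 12.9, 8.22 and 6.31 CPM in ire-1 cold, against 9.04, 17.4 and 17.2 CPM in WT cold (-0.67 ± 0.43, adjusted p = 0.839, and -0.43 without the 4 sperm-rich libraries). *fat-7* had 44.7, 55.05 and 28.96 CPM in ire-1 cold, against 42.1, 70.1 and 60.6 CPM in WT cold (-0.42 ± 0.40, adjusted p = 0.933). *fat-6*, a close paralog of *fat-7*, had 97.5, 330 and 121 CPM in ire-1 cold, against 136, 217 and 161 CPM in WT cold. Its value of 0.10 ± 0.63 turned to -0.42 without the 4 sperm-rich libraries, and ire-1 cold 2 was the highest of the 6. For *fat-5* and *fat-7* the control libraries of the strains did not overlap, with differences of -1.23 and -1.29, of which that of *fat-7* passed in the paired fit (paired adjusted p = 0.0248 without cold) and neither passed unpaired.

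The lists of fat metabolism held few genes without overlap in the cold, where 4.45% of all genes were higher and 12.4% lower without overlap. Of 19 desaturases and elongases 1 was lower without overlap (median -0.13, and -0.32 without the sperm-rich libraries), the dehydratase gene *hpo-8* of fatty acid elongation (-0.36 ± 0.15, adjusted p = 0.62). Of 23 genes of peroxisomal beta-oxidation 2 were lower and 1 higher without overlap (median -0.25), with the acyl-CoA oxidase gene *acox-3* lower at 3.70, 4.62 and 4.53 CPM in ire-1 cold, against 5.04, 7.15 and 9.64 CPM in WT cold (-0.76 ± 0.27, adjusted p = 0.613). Without cold 11 of the 23 were lower without overlap (median -0.89), against 11.5% of all genes. Of 30 genes of mitochondrial beta-oxidation 2 were higher and 2 lower (median 0.03). Of 26 fat synthesis genes and lipid transcription factors 2 were higher and 3 lower (median 0.06), among them *nhr-10*, a nuclear receptor gene that acts in propionate breakdown, with 18.6, 13.5 and 17.7 CPM in ire-1 cold, against 30.02, 25.8 and 34.1 CPM in WT cold (-0.85 ± 0.25, adjusted p = 0.613). Lipases (18, median -0.07, and -0.30 without the sperm-rich libraries), lipid-binding proteins (16, -0.24) and the methionine cycle with phosphatidylcholine synthesis (21, 0.08) held 1, 3 and 2 lower genes without overlap and none higher, and *ckb-2* of the last list passed in the paired fit.

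None of the yolk genes passed, although their values pointed one way. All 6 vitellogenin genes, which encode yolk proteins made in the intestine for the oocytes, had negative values (median -0.68), and 1 did not overlap, *vit-1*. It had 973, 1422 and 1118 CPM in ire-1 cold, against 4331, 1579 and 1946 CPM in WT cold (-1.16 ± 0.35, adjusted p = 0.613), and the difference was -0.60 without WT cold 1, the highest of the 6 libraries. The lowest wild-type library lay only just above the highest mutant one, and WT cold 4 to 6 had 1522, 1740.2 and 1641 CPM. Without cold all 6 were lower without overlap (median -1.08), against 11.5% of all genes. *vit-3* and *vit-4* are near-identical copies, so their split of the reads is uncertain.

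Genes of protein synthesis, respiration and protein breakdown showed small differences, and not all one way. Of 81 cytosolic ribosomal protein genes 19 were higher and 14 lower without overlap (23.5% and 17.3%, median 0.08), against 4.45% and 12.4% of all genes, and the split became 30 and 12 with RLE. Those lower included *rpl-29*, with 545, 517 and 568 CPM in ire-1 cold, against 686, 746 and 1119.5 CPM in WT cold (-0.65 ± 0.23, adjusted p = 0.613). Of 35 respiratory chain and ATP synthase genes 11 were higher and 4 lower (31.4% and 11.4%, median 0.14). Of 33 proteasome subunits none was higher and 9 were lower (27.3%, and 3 with RLE), with a median of -0.04 and 0.08 without the sperm-rich libraries, such as *pbs-4* with 256, 206 and 246 CPM in ire-1 cold, against 294, 318 and 450 CPM in WT cold (-0.58 ± 0.18, adjusted p = 0.613). Of 23 cytosolic heat shock genes 1 was higher and 1 lower (median 0.15).

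Nervous system genes were examined because the title places *ire-1* function in neurons. Of 26 genes of vesicle release and transmitter synthesis (median 0.28, and 0.01 without the sperm-rich libraries), 1 was higher and 1 lower without overlap, against 4.45% and 12.4% of all genes. The higher one was *snb-1*, the synaptobrevin gene, with 170, 179 and 190 CPM in ire-1 cold, against 150, 157 and 150 CPM in WT cold (0.24 ± 0.13, adjusted p = 0.758). The lower one was *tbh-1*, whose enzyme makes octopamine and which is also expressed in gonadal sheath cells, with 277, 143 and 218 CPM in ire-1 cold, against 380, 355 and 431 CPM in WT cold (-0.87 ± 0.35, adjusted p = 0.613). Of 87 neuropeptide genes 1 was lower, *nlp-28* (-0.91 ± 0.32, adjusted p = 0.613), and the median of 0.27 turned to -0.06 without the sperm-rich libraries. The 22 neuron markers held 3 higher and 1 lower (0.36, and 0.01 without those libraries), and the 17 insulin-like peptide genes 1 higher (0.63, and 0.11). Genes of cold tolerance and survival (25, median -0.03) held 2 higher and 4 lower, among them *isy-1*, a splicing factor gene that restrains the cold factor *zip-10*, with 95.2, 69.3 and 92.7 CPM in ire-1 cold, against 111, 110 and 194 CPM in WT cold (-0.69 ± 0.27, adjusted p = 0.613).

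Defence and detoxification families held members in both directions. Of 95 C-type lectins 10 were higher and 6 lower without overlap (median 0.10). *clec-4* had 2.35, 3.85 and 1.88 CPM in ire-1 cold, against 0.776, 0.684 and 0.735 CPM in WT cold (1.87 ± 0.40, adjusted p = 0.546), and 0.647, 0.536 and 0.431 CPM in WT cold 4 to 6. Of 38 lysozymes, saposin-like proteins and antimicrobial peptides 4 were higher and 5 lower (median -0.20). *gst-38*, a glutathione S-transferase gene, had 7.63, 8.82 and 8.87 CPM in ire-1 cold, against 0.465, 1.597 and 0.310 CPM in WT cold (3.41 ± 0.78, adjusted p = 0.613), and it passed without the 4 sperm-rich libraries (4.403, adjusted p = 0.0191). That fit leaves out WT cold 2, the highest of the 3 WT cold libraries for *gst-38*. Of 50 cytochrome P450 genes 6 were lower and none higher (median -0.17), of 58 UDP-glucuronosyltransferases 3 were higher and 2 lower (0.07), and of 48 transthyretin-related genes 3 were lower (0.10, and -0.03 without the sperm-rich libraries). Of 33 glutathione S-transferases 3 were higher and 4 lower (-0.07), of 16 *pals* genes 1 and 3 (-0.09), and of 169 nuclear hormone receptors 9 and 14 (0.00296). *ttr-42*, a transthyretin-related gene, had 18.6, 12.7 and 17.6 CPM in ire-1 cold, against 30.1, 48.6 and 54.4 CPM in WT cold (-1.44 ± 0.28, adjusted p = 0.443). Of 202 genes for F-box and MATH/BTB proteins 10 were higher and 29 lower (median -0.06), against 4.45% and 12.4% of all genes.

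**Figure D4:**
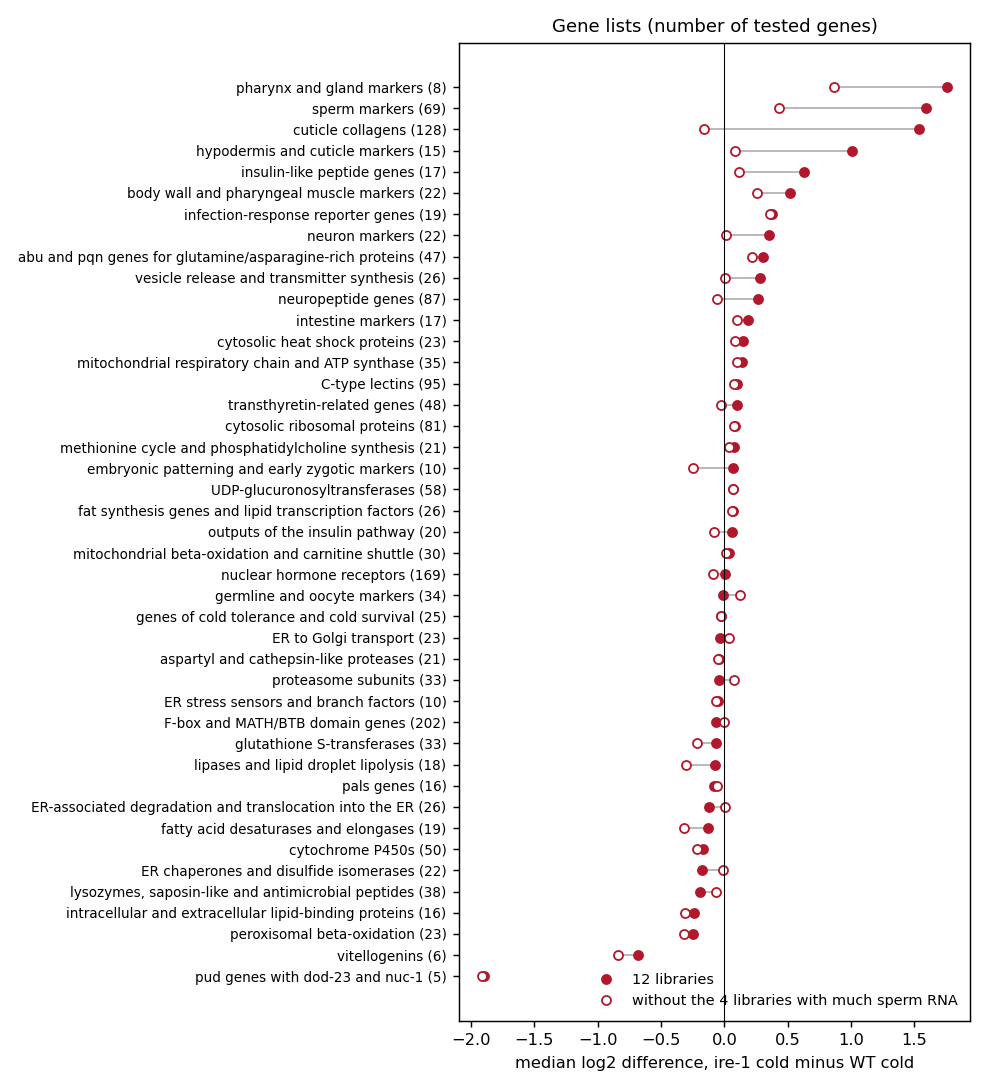
Median log2 difference of ire-1 cold against WT cold (x axis) for the tested genes of 43 lists, with their number in brackets; filled points use the 12 libraries and open points leave out the 4 sperm-rich ones. The pud list has the lowest median in both (-1.90 and -1.91), while collagens, at 1.54, turn to -0.16.

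The lists with the highest medians moved most when the sperm-rich libraries were left out. Of 128 collagens, which build the cuticle, 4 were higher and 4 lower without overlap, with a median of 1.54 and -0.16 without the sperm-rich libraries. The 69 sperm genes had no member without overlap (median 1.59, and 0.43), and 15 hypodermis markers had a median of 1.01 and 0.08. Summed collagens were 11530, 26790 and 13570 CPM in ire-1 cold, against 13090, 25300 and 14770 CPM in WT cold, with replicate 2 the highest in both. The summed sperm markers did not separate the strains in the cold (exact permutation test, two-sided, p = 0.5, where 0.1 is the smallest that 3 against 3 can give).

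Pharynx markers had higher summed levels in the mutant library of each pair. All 8 tested pharynx markers had positive values (median 1.76, and 0.86 without the sperm-rich libraries), and 3 did not overlap, against 4.45% of all genes. *myo-2*, a myosin heavy chain gene of pharyngeal muscle, had 4.92, 88.5 and 5.16 CPM in ire-1 cold, against 1.28, 4.37 and 0.697 CPM in WT cold (3.95 ± 1.49, adjusted p = 0.613), and the difference was 1.25 without ire-1 cold 2 and 2.35 without the 4 sperm-rich libraries. Each mutant library was above every wild-type one, ire-1 cold 2 by far, and the 2 others only just. *pha-4*, the gene for the factor that specifies the pharynx, had 4.49, 8.09 and 8.05 CPM in ire-1 cold, against 3.45, 2.32 and 3.83 CPM in WT cold (1.102 ± 0.40, adjusted p = 0.613). Summed pharynx markers were 13.98, 123 and 18.4 CPM in ire-1 cold, against 7.52, 16.8 and 7.47 CPM in WT cold (exact permutation test, two-sided, p = 0.2). Of 47 *abu* and *pqn* genes, for glutamine- and asparagine-rich proteins of which some line the pharynx, 5 were higher and 1 lower without overlap (median 0.31). *pqn-75* had 1.83, 10.6 and 3.47 CPM in ire-1 cold, against 0.970, 0.684 and 0.697 CPM in WT cold (2.75 ± 0.63, adjusted p = 0.613), and the difference was 1.67 without the 4 sperm-rich libraries.

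Germline markers lay near the shares of all genes, and the embryonic sum was lower in the mutant libraries. Of 34 germline and oocyte markers 2 were higher and 4 lower without overlap (median -0.01, and 0.12 without the sperm-rich libraries), against 4.45% and 12.4% of all genes, such as *glh-4*, a germ granule helicase gene, with 175, 147 and 151 CPM in ire-1 cold, against 140, 106 and 113 CPM in WT cold (0.40 ± 0.16, adjusted p = 0.613), and *syp-2*, a synaptonemal complex gene (-0.63 ± 0.24, adjusted p = 0.613). Summed embryonic markers were 303, 212 and 305 CPM in ire-1 cold, against 372, 323 and 330 CPM in WT cold. All mutant libraries were lower (exact permutation test, two-sided, p = 0.1, the smallest possible), and the germline sum overlapped. The largest part of each embryonic sum was 1 gene, *pal-1*, with 169, 114 and 167 CPM in ire-1 cold, against 217, 198 and 215 CPM in WT cold. Of 10 tested embryonic markers 3 were lower and 1 higher without overlap (median 0.07, and -0.25 without the sperm-rich libraries). Of these 10 markers, 6 had positive and 4 negative values.

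**Figure D5:**
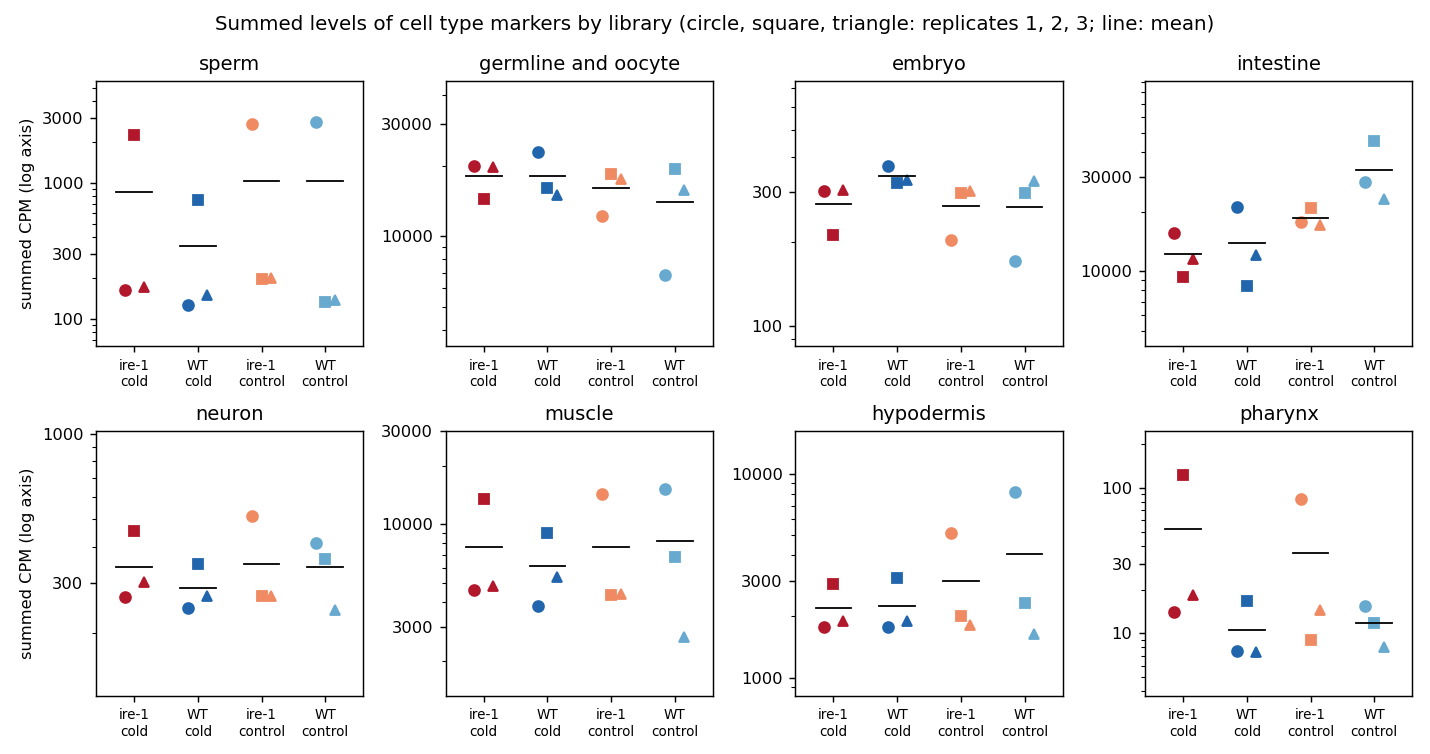
Summed CPM of the markers of 8 cell types in the 12 libraries (log axis), for ire-1 cold, WT cold, ire-1 control and WT control from left to right; symbols are replicates 1 to 3 and lines are group means. Sperm and muscle sums are high in replicate 2 of both cold groups and in replicate 1 of both control groups, and pharynx sums in ire-1 cold 2 and ire-1 control 1.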

How the data were processed

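The data were raw counts per gene in 18 poly(A) RNA libraries, as the authors deposited them, of which the 12 of experiment 1 were fitted. The submitters' processing notes name bcl2fastq, STAR 2.5.0a, HTSeq and the build WBcel235. Its annotation release and strand setting are not given in the sources used. The 46748 identifiers were matched to the Ensembl 115 annotation, with 3055 left without a symbol. The quasi-likelihood test of edgeR 4.0.16 in R 4.3.3 was fitted with 1 mean per group, TMM scaling, and a filterByExpr filter (minimum count 10, total 15). The SE is the absolute log2 difference over the square root of F, both from the unpaired fit. Calls were made at 0.05 after Benjamini-Hochberg adjustment over all 14344 genes that were tested. DESeq2 1.42.0 and limma 3.58.1 (voom) were alternatives, as were RLE factors, no filter, other sets of libraries and each library left out. The procedure was tested on simulated data. Of true log2 changes of 1, 2 and 3 between the cold groups, it called 15.9%, 41.3% and 56.8%. It also called 9 unchanged genes, with 13972 genes tested.

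The members and the 43 lists were chosen with earlier results of these data known, and 17 asked list members were not found. The text names called genes without overlap whose higher group averaged 5 CPM or more, up to 12 per direction, completed from the paired fit, with 9 given in any case (*ire-1*, *xbp-1*, *pek-1*, *atf-6*, *hsp-3*, *hsp-4* and the *fat* genes) and up to 3 per list with the smallest p. The genes *unc-105*, C38D9.13, F15D4.6, C45B2.2, *idpp-8*, *trp-4*, *col-95*, F35F10.5, F48C1.9, Y43C5A.7, *asp-4*, *cpr-9* and *nuc-1* were chosen after their values were seen. After removing group means, same-numbered libraries correlated at 0.646, 0.81 and 0.338 in the cold and 0.891, 0.606 and 0.712 in the control, all above the minimum of 0.1, so the numbers were taken as pairs. The pairing is read from the data, and libraries of other numbers reached 0.61 in the cold and 0.755 in the control. Passing the minimum therefore does not show that the numbers are pairs.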

Additional observations from a re-analysis of the deposited data

How the results depend on the processing

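Between ire-1 cold and WT cold, 2 genes were called with RLE factors, without the count filter, with limma-voom and with the 6 cold libraries alone, as in the 12-library fit. DESeq2 called 46, the fit with the replicate block within each condition 22, all 18 libraries with an experiment term 5, and the fit without the 4 sperm-rich libraries 6. The 6 cold libraries with a replicate block gave 1038 calls on only 2 residual degrees of freedom. Leaving out 1 library gave between 1 and 3. Without cold the 9 calls became 296 with DESeq2, 390 with the replicate block, 47 with all 18 libraries, 3 without the sperm-rich libraries, and between 2 and 48 with 1 library left out. Dependence on the cold had 0 calls in every fit except DESeq2, which made 1.

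The *ire-1* difference passed with DESeq2 (-1.83), the replicate block (-1.9), all 18 libraries (-1.75) and the 6 cold libraries with a block (-1.84), and lay between -2.02 and -1.76 with 1 library left out. Signs turned for 4 genes near 0. *atf-6* had 0.018 with DESeq2, 0.0186 with RLE, 0.0708 with all 18 libraries, 0.0239 and 0.0365 with the 6 cold libraries without and with a block, 0.204 without the sperm-rich libraries, and from -0.238 to 0.0899 with 1 library left out. *fat-6* had -0.0189 with all 18 libraries, -0.0892 with voom, -0.0931 and -0.0264 with a block on 12 and 6 libraries, -0.422 without the sperm-rich libraries, and from -0.647 to 0.391 with 1 left out. *xbp-1* had -0.0327 with all 18 libraries and from -0.101 to 0.156 with 1 left out, and *pek-1* 0.0292 and from -0.387 to 0.0961. Without WT cold 3 the differences were nearer 0 for *isy-1* (-0.37), *pbs-4* (-0.38), *rpl-29* (-0.40), *spcs-1* (-0.47) and *tmed-3* (-0.39), and *fat-7* lay between -0.65 and -0.21 with 1 library left out. The cause was not tested.

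With 3 libraries per group, and counting error that adds to the spread of genes near or below 1 CPM, genes without a call are not shown to be equal between the strains. What a replicate number marks is not given in the labels, and calls made only with the block rest on the numbers being pairs.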
